A study of Mus musculus with 7 samples.

Results

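The genes described here are the mouse genes named Zfp plus a number that were expressed in LLC1, a Lewis lung carcinoma line, with and without an shRNA against Ddx54. They were chosen by name and by level: a symbol of Zfp and digits only, Zfp36 left out, and at least 50 raw counts in at least 3 of the 7 libraries. The table held 336 such names among 24419 genes, and 225 of them met the count rule. Of the 111 left out, 20 had no count in any library. Because Zfp names are given to many unrelated proteins with zinc fingers, the 225 members share a motif and a naming scheme, not a single function.

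A C2H2 zinc finger is a short loop held by a zinc ion between paired cysteines and histidines, and tandem arrays of fingers can read a DNA or RNA sequence. Many mammalian members also carry a KRAB domain, which recruits the co-repressor Trim28 and, through it, histone methylation and DNA methylation at retroelements and imprinted loci. Others act in splicing, ribosome quality control, mitosis or as classical transcription factors. KRAB members lie in tandem clusters of recent duplicates, so their transcripts can resemble each other.

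Polyadenylated RNA was sequenced from cultured LLC1 cells, 4 libraries of the group labelled wild type for Ddx54 and 3 of the group labelled Ddx54 knockdown. Ddx54 encodes a nucleolar DEAD-box RNA helicase, and the series title places the comparison in work on lung tumours and anti-PD1 therapy. The labels give no shRNA sequence, no clone and no construct for the wild-type cells, so the vector or infection and the loss of Ddx54 cannot be told apart. Replicates are not said to be independent cultures, so p-values measure only how far these samples spread, and that spread may be technical.

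The libraries held 14987324 to 18673395 counts. Values below are CPM (counts scaled to library totals adjusted for RNA composition by TMM factors), and log2 fold changes are knockdown over wild type from edgeR's quasi-likelihood test, adjusted over all 11594 tested genes at a threshold of 0.05. Ddx54 itself stood at 80.4, 82.5, 78.6 and 83.2 CPM in wild type 1 to 4, against 45.9, 39.2 and 45.8 CPM in knockdown 1 to 3. Knockdown libraries thus kept 53.8% of the wild-type level (log2 fold change -0.90, SE 0.096, adjusted p = 6.55e-09; exact two-sided permutation p = 0.0286, the smallest that 35 assignments allow). Rn45s, the ribosomal RNA precursor, took 10.7% to 12.5% of wild-type counts and 7.96% to 9.07% of knockdown counts, and its part in the results was not tested beyond leaving it out. Of marker lists checked, 4 of 10 epithelial genes were tested and 2 of these were lower. Their summed level was 242.4 to 249.3 CPM in wild type and 149.8 to 169.3 CPM in knockdown, mostly Krt18, while Epcam and Cdh1 were at most 0.196 CPM and Cldn3 and Cldn4 at 0. Of 15 leukocyte genes 2 were tested and 1 was higher. These 2 summed to 19.6 to 22.8 and 26.1 to 30.2 CPM, mainly Cd14, while Cd3e and Cd8a were at 0. Of 10 endothelial genes 2 were tested and 1 was lower. They summed to 35.9 to 49.7 and 21.7 to 26.1 CPM, mainly Egfl7, while Cdh5 was at 0. Of 10 fibroblast genes 5 were tested and 0 passed. Those summed to 1044 to 1235 and 1058 to 1125 CPM, nearly all Col3a1, while Thy1 was at 0. Pdgfra was at 17.9 to 19.7 CPM in wild type and 23.7 to 25.9 CPM in knockdown. The part of all these markers in the results was not tested. In bulk RNA, fewer cells of a type and less RNA per cell cannot be told apart.

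The share of Zfp genes that passed was below the share over all genes, and rises and falls were equal in number. Of the 225 members, 17 rose and 17 fell in knockdown, and 191 did not pass. That is 15.1% called, against 29.4% of all tested genes and 33.3% of tested genes that met the same count rule. By direction, 14.1% of all tested genes rose and 15.3% fell. The median log2 fold change of the members was 0.01, with estimates from -1.39 to 0.98, beside 0.00 for all tested genes. The CPM ranges of the groups did not overlap for 46 members, or 20.4%, against 35.1% of all tested genes. Only Zfp420 and Zfp689 changed by 1 log2 unit or more among the called members. Summed over the 225 members, wild-type libraries held 5343 to 5548 CPM and knockdown libraries 5535 to 5623 CPM, ranges that overlap slightly.

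The count rule used levels and not the comparison of groups, but a gene could meet it through 1 group alone. Of the 225 members, 187 reached 50 counts in all 7 libraries, 4 reached the rule through wild-type libraries only (Zfp235, Zfp3, Zfp420 and Zfp689) and 0 through knockdown libraries only. Zfp420 had 63 to 104 counts in wild type and 28 to 36 in knockdown, and Zfp689 had 60 to 118 and 25 to 45, so for both the wild-type libraries alone met the rule. Without these 4, 17 of 221 members rose and 15 fell, with a median of 0.02. At the edge of the rule, the third highest counts of Zfp235, Zfp182 and Zfp85 were 51, 52 and 52, just inside. Those of Zfp94, Zfp383 and Zfp40 were 48, 49 and 49, just outside.

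**Figure D1:**
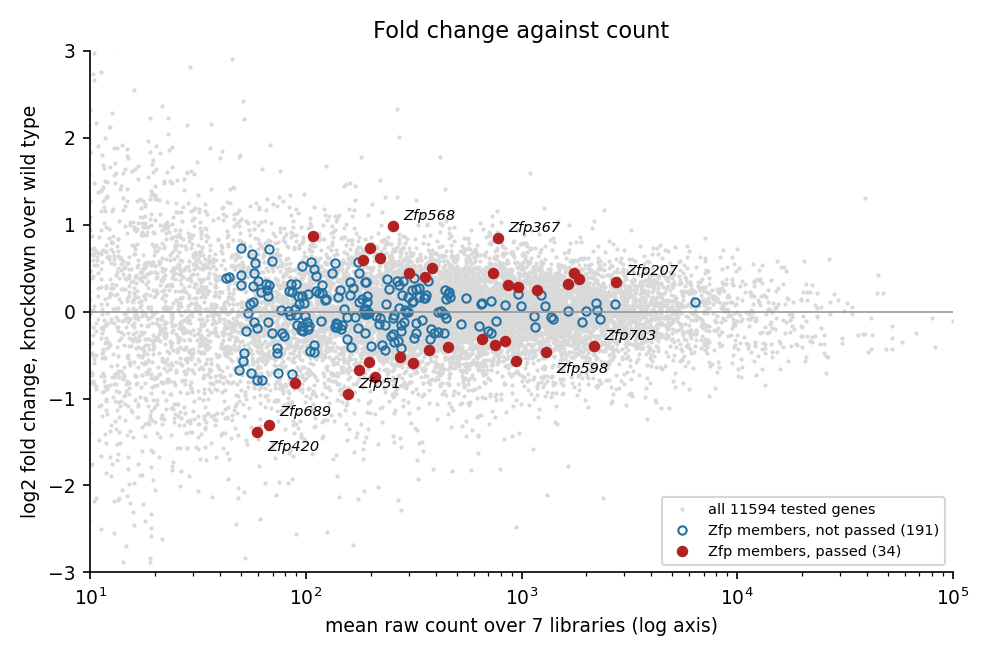
Log2 fold change (knockdown over wild type, y axis) against the mean raw count over 7 libraries (log x axis) for all 11594 tested genes (grey) and the 225 members (open blue, 191 not passed; filled red, 34 passed); genes beyond the axis limits are not drawn. Members that passed spread over both directions, from Zfp420 at -1.39 to Zfp568 at 0.98.

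Members were low in abundance, which limits the precision of each estimate. Their median count per library was 191, against 412 for all tested genes, and their median standard error was 0.21 against 0.15. The lower share of called members was also seen within ranges of equal count. Below a mean of 100 counts, 5.08% of 59 members passed against 13.4% of genes past the same rule. From 100 to 300 counts 12.1% of 91 members passed and 470 of 2243 genes, from 300 to 1000 counts 24.1% of 54 and 31.9%, and at 1000 or more 33.3% of 21 and 50.1%. Members are not independent of each other, and no test was made of these shares.

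**Figure D2:**
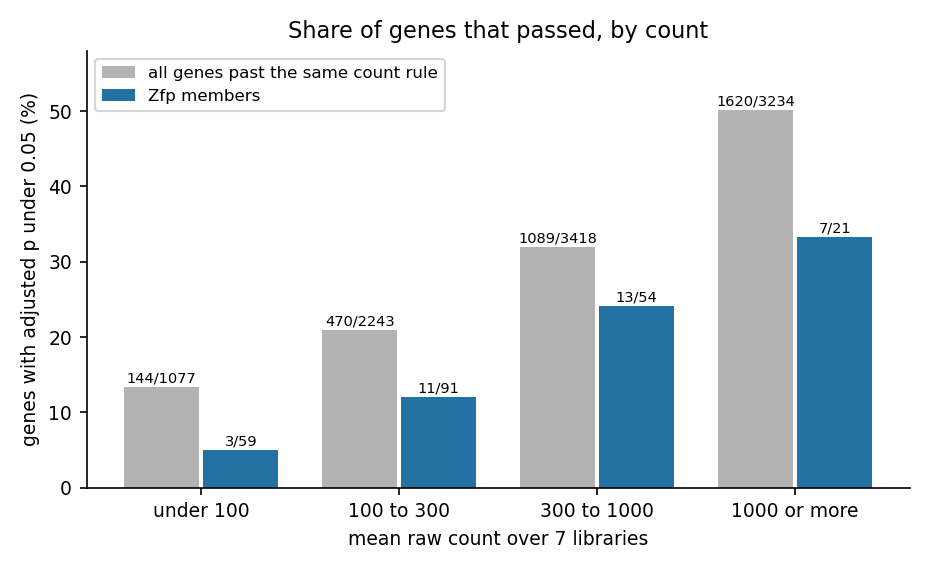
Share of genes with adjusted p under 0.05 (y axis, %) by mean raw count (x axis) for genes past the same count rule (grey bars) and the members among them (blue bars), with the number called over the number in each range. The members' bar is the lower of the pair in each of the 4 ranges, from 5.08% against 13.4% to 33.3% against 50.1%.

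The largest rise, Zfp568, and the largest falls, Zfp420 and Zfp689, lie on mouse chromosome 7. Both of these falls belong to genes that met the count rule through wild type only, and without such genes the largest called fall is that of Zfp51 on chromosome 17 (-0.95). Zfp420, Zfp568 and Zfp566 lie in 1 cluster of 10 members at chr7:29768552-30107622. Zfp420 was at 5.67, 5.77, 4.51 and 3.73 CPM in wild type 1 to 4 and at 1.79, 1.52 and 2.34 CPM in knockdown 1 to 3. Every knockdown library was below every wild-type library, and Zfp420 fell by 1.39 on the log2 scale (SE 0.38, adjusted p = 0.00526). Zfp566 fell from 7.85, 6.18, 4.84 and 7.46 CPM to 4.06, 3.15 and 3.97 CPM (log2 fold change -0.82, SE 0.30, adjusted p = 0.0352). Its ranges did not overlap either, but they lay close, and the call was lost without wild type 1, wild type 4 or any one of the 3 knockdown libraries (adjusted p up to 0.137 across alternatives). With the replicate number as a block the call was lost too (adjusted p = 0.114). Zfp566 also shared 15.7% of its 50-base words with other genes, mostly the overlapping Gm26920, so its reads may be split.

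Between them lies Zfp568, a KRAB protein that represses a placental transcript of Igf2 and is needed for mouse gastrulation, and it moved the other way. Its level was 9.76, 10.4, 10.1 and 12.6 CPM in wild type and 20.4, 22.3 and 20.9 CPM in knockdown. The 3 knockdown libraries lay close together and far above the wild-type range (log2 fold change 0.98, SE 0.17, adjusted p = 4.04e-05). The other 7 members of the cluster did not pass, with estimates from -0.78 for Zfp27 to 0.35 for Zfp84. Over all tested genes 29.4% passed. The median of the 10 members of the cluster was -0.20.

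The promoters of Zfp420 and Zfp566 are shown because both genes fell and both hold the same letters. The letters are ACTACA, any base, then TTCCC, a core of the sequence bound by the activator Zfp143 (ZNF143 in human). Each run is 260 bases from RefSeq (GRCm38.p6), 5′ to 3′ on the gene's strand, up to 10 bases past the annotated start. Capitals mark matches on either strand to these letters, to CCAAT, or to the YY1 letters AAGATGGC. Zfp420 is chr7:29859762-29860021 on the plus strand and Zfp566 is chr7:30090501-30090760 on the minus strand.
Zfp420: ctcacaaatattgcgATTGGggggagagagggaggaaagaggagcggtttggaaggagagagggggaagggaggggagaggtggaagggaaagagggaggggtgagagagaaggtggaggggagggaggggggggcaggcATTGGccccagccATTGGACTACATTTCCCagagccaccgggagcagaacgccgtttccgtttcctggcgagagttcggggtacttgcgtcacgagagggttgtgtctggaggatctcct
Zfp566: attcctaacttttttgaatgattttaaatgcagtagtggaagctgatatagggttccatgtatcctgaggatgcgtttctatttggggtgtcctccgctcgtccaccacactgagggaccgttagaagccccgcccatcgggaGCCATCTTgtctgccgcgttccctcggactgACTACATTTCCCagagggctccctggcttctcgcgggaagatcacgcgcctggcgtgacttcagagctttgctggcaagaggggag

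The ZNF143 letters begin 92 bases before the start of Zfp420 and 76 bases before that of Zfp566. Among members with a promoter in the table, 23 of 183 (12.6%) held these letters on either strand, against 2.56% of 8852 tested genes. The letters were chosen after promoters had been seen, so these shares describe the sequences and are no independent support. The share was 19.4% among KRAB members, and 10 of the 23 lie on chromosome 7 and 6 on chromosome 13. Of the 23, Zfp420 and Zfp566 fell, Zfp692 rose and 20 did not pass. Their median log2 fold change was 0.205, against 0.014 for all members, with estimates from -1.386 to 0.735. KRAB members made up 19 of the 23, and the median of all KRAB members was 0.09. A link between the letters and the direction of change was not tested. Zfp143 itself was at 19.7 to 24.8 CPM in wild type and 18.6 to 21.5 CPM in knockdown, ranges that overlap (log2 fold change -0.10, SE 0.15, adjusted p = 0.687). A match describes the letters only.

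A further chromosome 7 cluster, chr7:127233061-127615797, held 8 members, of which 3 fell and 0 rose. Over all tested genes 15.3% fell and 14.1% rose. Zfp689 was at 5.07, 6.05, 3.92 and 6.99 CPM in wild type and 1.49, 2.28 and 2.93 CPM in knockdown (log2 fold change -1.30, SE 0.36, adjusted p = 0.00586). As for Zfp420, the ranges were apart and the counts were low. Both genes met the count rule through wild type only, so their choice favoured separate ranges. That separation is no independent support, and Zfp689 is among the 3 falls counted here. Its neighbour Zfp688 fell from 13.8 ± 2.33 (SD, n = 4) to 9.19 ± 0.634 CPM (SD, n = 3; log2 fold change -0.58, adjusted p = 0.0268), and Zfp768 from 43.7 ± 4.12 to 35.0 ± 4.79 CPM (-0.32, adjusted p = 0.0478). Both calls were fragile: Zfp688 missed the threshold without wild type 1 or any 1 knockdown library (adjusted p 0.057 to 0.108), and Zfp768 without wild type 2, wild type 4, knockdown 1 or knockdown 2. The adjusted p of Zfp768 reached 0.269 across alternatives, and its group ranges overlapped. Corrected for GC content and length, its log2 fold change was -0.21 (adjusted p = 0.195). With the replicate number as a block it was -0.30 (adjusted p = 0.103). The other 5 had estimates from -0.39 for Zfp629 to 0.01 for Zfp553.

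Beyond these clusters, the falls came from KRAB and other zinc finger genes on several chromosomes. Zfp51, a KRAB gene in a chromosome 17 cluster, was at 9.76, 13.2, 15.2 and 10.0 CPM in wild type and 6.38, 7.22 and 5.01 CPM in knockdown. The highest knockdown library was below the lowest wild-type library (log2 fold change -0.95, SE 0.23, adjusted p = 0.00194). Zfp277, a partner of the Polycomb protein Bmi1, was at 69.9, 68.1, 57.5 and 69.9 CPM in wild type and 41.8, 47.5 and 44.8 CPM in knockdown. Wild type 3 was the lowest of its group but stayed above all knockdown libraries (log2 fold change -0.57, SE 0.10, adjusted p = 6.3e-05). Zfp775 fell from 22.2 ± 1.0 to 14.7 ± 1.99 CPM (log2 fold change -0.59, adjusted p = 0.00481).

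Zfp623, Zfp395 and Zfp12 fell with less support. Zfp623 fell from 15.5 ± 3.19 to 9.19 ± 1.79 CPM (log2 fold change -0.76, adjusted p = 0.00511), and the call was lost only without knockdown 2 (adjusted p = 0.0527). Zfp395 fell from 12.7 ± 2.61 to 7.91 ± 1.27 CPM (-0.68, adjusted p = 0.0186), and was lost without wild type 2, wild type 4 or knockdown 3 (up to 0.114). Zfp12, a KRAB gene, fell from 18.8 ± 3.76 to 13.2 ± 2.05 CPM (-0.52, adjusted p = 0.0321) and was lost without wild type 1, wild type 3, knockdown 1 or knockdown 3 (0.0855 to 0.165). Zfp444 (-0.41, adjusted p = 0.0213) and Zfp110 (-0.45, adjusted p = 0.0435) also fell. Zfp444 was lost without wild type 4, knockdown 2 or knockdown 3, and Zfp110, which encodes a partner of the neurotrophin receptor p75, under 8 of the 17 alternatives, with leaving out wild type 1, wild type 4, knockdown 1 or knockdown 3 among them (adjusted p up to 0.102 and 0.211). With the replicate number as a block Zfp444 was lost too (adjusted p = 0.0902).

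Among the rises, Zfp367 had the most counts of the 3 largest. It was at 41.1, 32.5, 34.7 and 30.7 CPM in wild type 1 to 4 and 64.2, 59.5 and 64.3 CPM in knockdown 1 to 3. The groups were well separated (log2 fold change 0.85, SE 0.11, adjusted p = 4.39e-07). Zfp871, a KRAB gene of chromosome 17, was at 95.4, 89.2, 101 and 108 CPM in wild type and 115, 129 and 139 CPM in knockdown (0.37, SE 0.083, adjusted p = 0.000629). Its ranges were apart by a narrow gap, and both genes passed under all 17 alternatives, though corrected for GC content and length Zfp871 was at 0.23 (adjusted p = 0.0216).

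The promoters of Zfp367 and Zfp871 are shown because these were the 2 members that rose among the 10 whose promoters held the E2F letters TTTCCCGC or TTTGGCGC. E2F factors control genes of the S phase. Capitals mark matches on either strand to the E2F letters or to CCAAT, in runs made as above, chr13:64153190-64153449 and chr17:32788278-32788537, both on the minus strand.
Zfp367: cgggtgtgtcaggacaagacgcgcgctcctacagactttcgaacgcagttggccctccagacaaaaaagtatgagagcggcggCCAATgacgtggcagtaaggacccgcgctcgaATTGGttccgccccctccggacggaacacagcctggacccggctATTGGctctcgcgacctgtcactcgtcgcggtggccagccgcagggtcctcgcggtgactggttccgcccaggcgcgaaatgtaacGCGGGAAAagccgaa
Zfp871: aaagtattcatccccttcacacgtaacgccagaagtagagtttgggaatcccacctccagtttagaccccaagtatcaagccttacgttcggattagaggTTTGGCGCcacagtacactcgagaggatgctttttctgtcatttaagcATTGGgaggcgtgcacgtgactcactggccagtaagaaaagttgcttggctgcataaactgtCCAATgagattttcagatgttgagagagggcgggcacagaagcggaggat

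The E2F letters begin 5 bases before the start of Zfp367 and 150 bases before that of Zfp871. They were found in 5.46% of the 183 member promoters and 3.32% of the promoters of all tested genes. Of the 12 members that fell and had a promoter in the table, 2 held them too, as did 2 of the 14 that rose. CCAAT was in 50.3% of member promoters against 39.4%, the CREB/ATF letters TGACGTCA in 3.28% against 3.46%, and the YY1 letters in 6.56% against 5.21%. Member promoters had a lower median GC content, 55.0% against 61.3%, and a median of 15 CpG pairs in 300 bases against 22.

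The other rises were of lower abundance or smaller size. Zfp944, a KRAB gene of chromosome 17, was at 4.42, 4.75, 5.10 and 4.80 CPM in wild type and 9.43, 9.72 and 6.90 CPM in knockdown (log2 fold change 0.87, SE 0.26, adjusted p = 0.0101). All knockdown libraries were above all wild-type libraries, but the call was lost without knockdown 1 (adjusted p = 0.0525) or knockdown 2 (0.0697), and 10.4% of its 50-base words were shared, mostly with Zfp942. Zfp407, with 22 fingers, was at 10.3, 7.95, 9.28 and 9.59 CPM and then 13.3, 16.6 and 16.5 CPM (0.74, SE 0.19, adjusted p = 0.00378). Its ranges were apart and it passed under all 17 alternatives.

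Zfp950 and Zfp101 are KRAB genes that rose by 0.62 (adjusted p = 0.0193) and 0.60 (adjusted p = 0.0204) on the log2 scale. Zfp950 was at 6.71 CPM in wild type 1 against 11.6 to 12.7 CPM in the other wild-type libraries, and at 15.1 to 17.9 CPM in knockdown. Without wild type 1 its log2 fold change was 0.44 (adjusted p = 0.0798), and it was also lost without knockdown 2 (0.0696) or knockdown 3 (0.087) and with GC content and length corrected for (0.47, adjusted p = 0.0783). Zfp101 rose from 9.14 ± 0.641 to 13.8 ± 1.25 CPM and was lost without knockdown 2 (0.062) or knockdown 3 (0.108). Zfp428 rose from 19.5 ± 2.31 to 27.6 ± 4.53 CPM (0.51, adjusted p = 0.0108), but not without knockdown 1 (0.129). Zfp692 rose from 18.9 ± 0.443 to 24.8 ± 3.17 CPM (0.39, adjusted p = 0.0444) and missed the threshold under 9 alternatives, with leaving out any one wild-type library, knockdown 1 or knockdown 2 among them (adjusted p 0.0532 to 0.241). Zfp318, which B cells need to express IgD, and Zfp35 rose by 0.24 (adjusted p = 0.0478) and 0.44 (adjusted p = 0.0493). Zfp318 was lost under 7 of the 17 alternatives, among them without wild type 1, wild type 2, knockdown 1 or knockdown 2 (up to 0.271), with upper-quartile factors (0.0562) and with GC content and length corrected for (log2 fold change 0.14, adjusted p = 0.261). Zfp35 was lost under 10, among them without wild type 1, 2 or 3 or knockdown 1 or 3 (up to 0.242), with GC content and length corrected for (0.0593), with limma-voom (0.0542), with upper-quartile factors (0.0527), after thinning (0.0651) and, narrowly, without Rn45s.

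**Figure D3:**
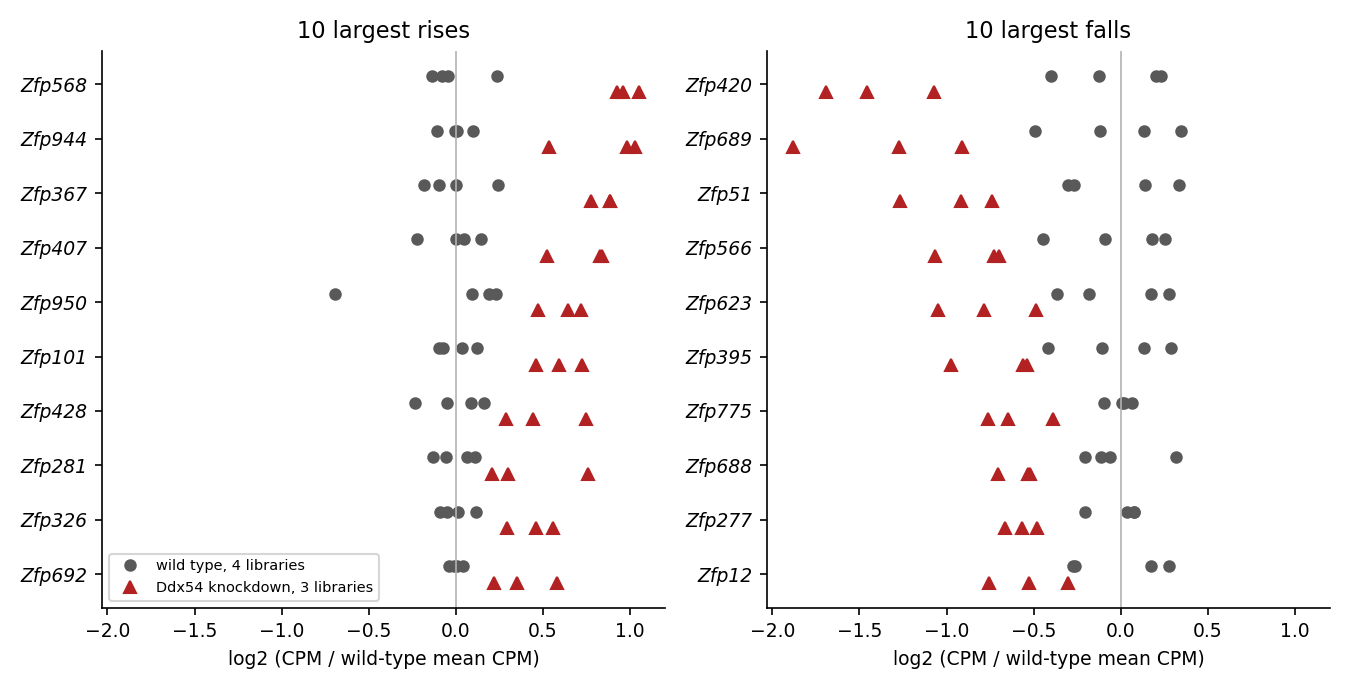
Level of the 10 members with the largest rises (left) and the 10 with the largest falls (right) in each library, as log2 of CPM over the wild-type mean CPM (x axis); grey circles are the 4 wild-type libraries and red triangles the 3 knockdown libraries. The groups do not overlap for any of the 20, which the choice of genes required, and the single wild-type point of Zfp950 at 6.71 CPM lies far from the others of its group.

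Members with a known role were taken from lists of textbook functions. Beside the calls below, 29.4% of all tested genes passed, and 33.3% of those past the same count rule. At a mean of 1000 counts or more, 50.1% of genes past that rule passed. The lists are short and were not tested as sets. Among KRAB proteins that silence retroelements or imprinted loci, 5 of 8 listed genes were members, of which 2 rose, 0 fell and 3 did not pass. Zfp568 is described above. Zfp445, which maintains imprints together with Zfp57, was at 47.9, 50.3, 55.6 and 58.7 CPM in wild type and 59.9, 69.4 and 64.0 CPM in knockdown. The groups nearly touched (log2 fold change 0.28, SE 0.10, adjusted p = 0.0367), and the call was lost without wild type 1 or 2 or knockdown 2 or 3 (adjusted p up to 0.204), as well as with GC content and length corrected for (0.21, adjusted p = 0.104). Zfp809, which binds the primer-binding site of murine leukaemia virus, was at 14.3 ± 1.41 and 18.2 ± 3.04 CPM (0.35, adjusted p = 0.139). Zfp932 (0.55, adjusted p = 0.341) and Zfp961 (0.11, adjusted p = 0.737), which repress endogenous retroviruses, also did not pass. Zfp57, Zfp708 and Zfp92 were below the count rule, with at most 38, 32 and 0 counts.

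Genes of RNA processing and RNA binding gave 3 rises among 5 members. That is 60.0% called, at a median count of 1640, against 50.1% of genes with a mean of 1000 counts or more. Zfp326, a subunit of the DBIRD complex that links RNA polymerase II to splicing, was at 86.1, 99.2, 88.4 and 92.5 CPM in wild type and 135, 126 and 112 CPM in knockdown. The ranges were apart (log2 fold change 0.44, SE 0.082, adjusted p = 7.66e-05). Zfp638, a nuclear RNA-binding protein, rose from 89.6 ± 11.0 to 112 ± 4.64 CPM (0.32, adjusted p = 0.00498). Zfp830, a spliceosome-associated protein, rose from 47.4 ± 1.43 to 58.8 ± 5.46 CPM (0.31, adjusted p = 0.0216), but not without knockdown 1 or knockdown 3 (up to 0.151). Zfp638 was lost once GC content and length were corrected for (adjusted p = 0.105). Zfp106, which binds RNA repeats, and Zfp346, which binds double-stranded RNA, did not pass (0.11 and -0.25, adjusted p = 0.181 and 0.273). Summed over the 5, wild type held 600.1 to 645.6 CPM and knockdown 701.9 to 723.5 CPM.

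Genes of ribosome assembly, the nucleolus and translation control gave estimates below 0 for each of 4 members, of which 2 fell. Zfp598, the ubiquitin ligase that marks collided ribosomes, was at 83.4, 97.7, 92.4 and 84.7 CPM in wild type and 61.9, 60.6 and 72.3 CPM in knockdown. Every knockdown library was lower (log2 fold change -0.46, SE 0.093, adjusted p = 0.000199). Zfp330, a nucleolar protein, fell from 50.7 ± 2.69 to 38.7 ± 3.39 CPM (-0.39, adjusted p = 0.00794), though not without knockdown 3 (0.0569). Zfp330 shared 5.29% of its 50-base words, mostly with Gm7785. Zfp622 and Zfp593, both factors of the large ribosomal subunit, did not pass (-0.12 and -0.20, adjusted p = 0.242 and 0.373).

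In the list on mitosis, ubiquitin and SUMO, 2 of 4 members rose. Zfp207, the spindle protein also called BuGZ that protects the checkpoint protein Bub3, was at 150, 149, 148 and 144 CPM in wild type and 190, 188 and 186 CPM in knockdown. Replicates were tight and the groups far apart (log2 fold change 0.35, SE 0.067, adjusted p = 0.000148). Zfp367, above, was the other. The ubiquitin ligase Zfp91 was at 159 ± 10.6 and 169 ± 3.54 CPM (0.08, adjusted p = 0.424). The SUMO ligase Zfp451 was at 44.5 to 45.4 CPM in wild type and 37.5 to 39.6 CPM in knockdown, ranges that do not overlap, but it did not pass (-0.22, adjusted p = 0.139). With GC content and length corrected for, it passed (-0.36, adjusted p = 0.0135).

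Sequence-specific activators and repressors had 1 rise among 8 members (12.5% called, against 29.4% of all tested genes). Zfp281, which binds GC-rich promoters in stem cells, was at 40.2, 37.0, 35.0 and 41.4 CPM in wild type and 44.3, 64.9 and 47.2 CPM in knockdown. Knockdown 2 stood above the others (log2 fold change 0.44, SE 0.12, adjusted p = 0.00624), and without it the log2 fold change was 0.25 (adjusted p = 0.19). Zfp148, Zfp143, Zfp410, which activates Chd4, Zfp384, Zfp335, Zfp263 and Zfp219 did not pass, with estimates from -0.19 for Zfp219 to 0.31 for Zfp335. Of 10 chromatin-complex partners, Zfp609, a Nipbl and Integrator partner, fell from 55.6 ± 2.68 to 44.2 ± 1.75 CPM (-0.33, SE 0.10, adjusted p = 0.0141) but not without knockdown 2 (adjusted p = 0.0729). With the replicate number as a block Zfp609 was lost as well (adjusted p = 0.0637). The other 9 (Zfp217, Zfp462, Zfp516, Zfp532, Zfp592, Zfp608, Zfp644, Zfp687 and Zfp827) did not pass, with estimates from -0.22 for Zfp687 to 0.12 for Zfp827.

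Of 8 listed developmental regulators only Zfp703 and Zfp467 were members. Zfp703, a transcriptional repressor known from luminal breast cancer, was at 139, 162, 148 and 140 CPM in wild type and 110, 104 and 122 CPM in knockdown. The groups did not overlap (log2 fold change -0.40, SE 0.079, adjusted p = 0.000183). Zfp467 was at 5.09 ± 0.522 and 3.67 ± 1.21 CPM and did not pass (-0.48, adjusted p = 0.302). The pluripotency gene Zfp42 and Zfp536 had 0 counts in every library, Zfp423 at most 5, Zfp503 at most 15, Zfp750 at most 22 and Zfp521 at most 68.

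**Figure D4:**
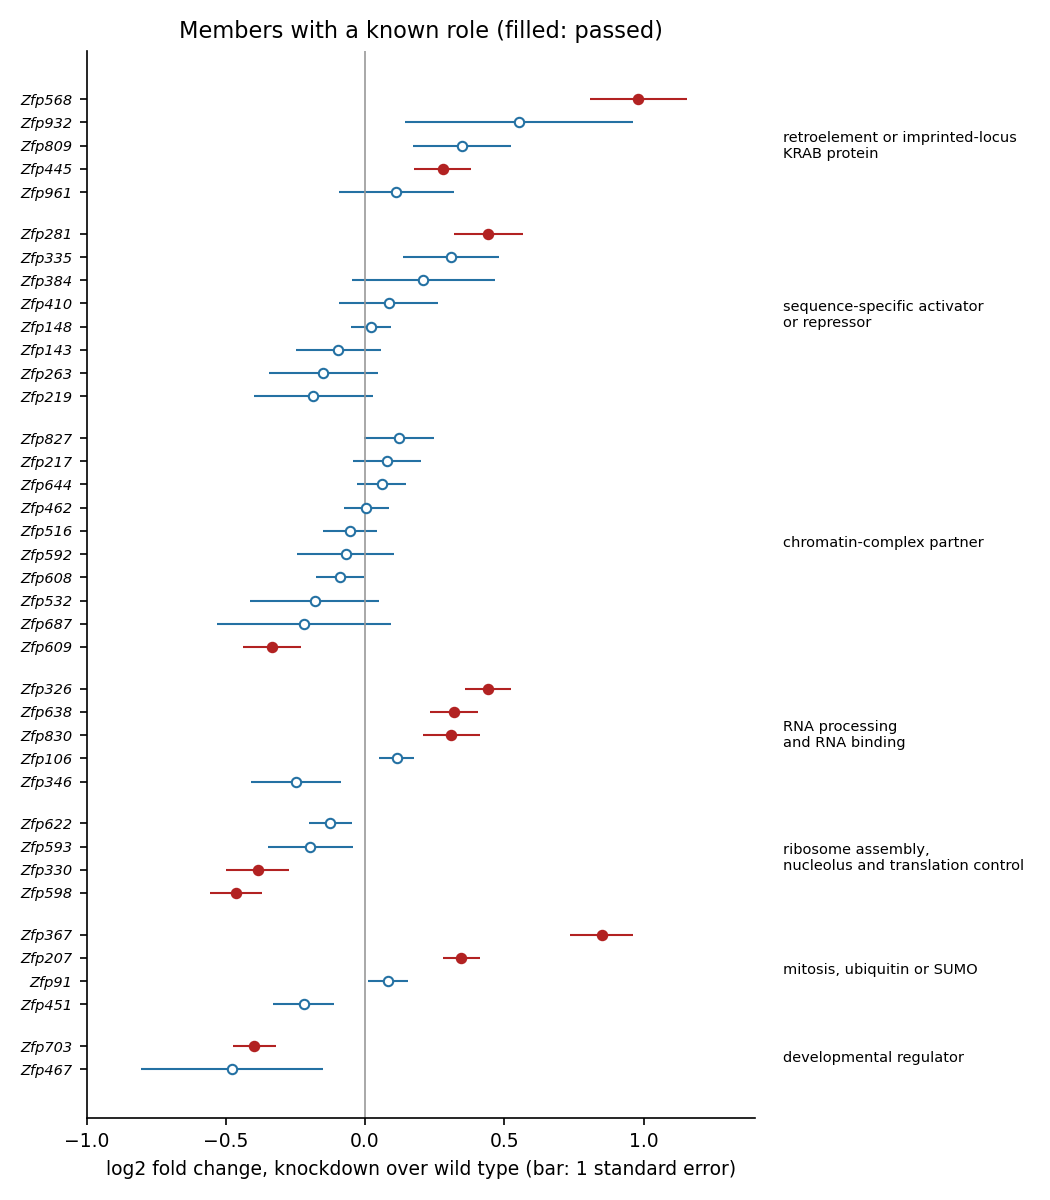
Log2 fold change, knockdown over wild type (x axis), with 1 standard error as a bar, for the members with a known role, grouped by list; filled red points passed and open blue points did not. RNA processing holds 3 filled points to the right of 0 and ribosome assembly 2 to the left, with Zfp568 at 0.98 the point farthest from 0. Over all tested genes 29.4% passed.

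By level per length of the longest transcript, the leading members were Zfp207 at 50.3 CPM per kb, Zfp106 at 42.2, Zfp703 at 41.8, Zfp131 at 38.9 and Zfp830 at 32.9. Over all members the mean CPM ran from 2.55 to 383 with a median of 11.6, not corrected for length. Zfp106 was at 351 to 395 CPM in wild type and 392 to 418 CPM in knockdown, and Zfp131 at 116 to 129 and 113 to 130 CPM. Both pairs of ranges overlap and neither gene passed (log2 fold changes 0.11 and 0.01).

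A KRAB pattern, either of a pair of residue patterns from the A box searched in the translated coding sequences, was found in 113 members. Genes with a divergent A box are missed by these patterns, so the members without a match may hold KRAB genes. Of the 113, 6 rose and 6 fell (10.6% called, against 29.4% of all tested genes). Leaving out some single libraries lowered these counts, though it also left fewer samples for the test. Then 2 rose without knockdown 2 and 3 without knockdown 3. In turn 2 fell without knockdown 3, 3 without knockdown 1 and 3 without wild type 1. Their median log2 fold change was 0.09, and their summed level was 1225 to 1352 CPM in wild type and 1333 to 1377 CPM in knockdown. The other 112 members gave 11 rises and 11 falls (19.6%) and a median of -0.02, with 6 rises without knockdown 1 and 7 falls without knockdown 2. KRAB members had fewer counts, a median of 137 against 316, and a lower median transcript GC content, 42.0% against 50.7%. The 2 sets were not tested against each other, and their medians moved with the processing: once GC content and length were corrected for, that of KRAB members was 0.02 and that of the others -0.04.

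The share called was highest among members with few fingers. Of 39 members with 0 to 4 fingers, 8 rose and 8 fell (41.0%, against 29.4% of all tested genes and 33.3% of genes past the same count rule). The shares were 4.48% of 67 members with 5 to 9 fingers, 10.4% of 77 with 10 to 14 and 16.7% of 42 with 15 or more. The first class also had the most counts, with a median of 657, while the others had 197, 174 and 151, an order opposite to that of their shares. The part of abundance in these shares was not tested. Zfp207, Zfp326, Zfp277, Zfp598 and Zfp367 belong to the first class. The largest number of fingers counted in a single protein was 36, and 5 members matched no finger pattern.

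Fold changes of members followed the GC content of their transcripts. Spearman's correlation between log2 fold change and GC content was -0.31 over 225 members, against -0.12 over 11520 tested genes, all from the same 7 libraries. GC-poor members had the higher estimates. After a correction for GC content and length fitted on all genes, the correlation was -0.14 for members and 0.00 for all. With that correction 12 members rose and 19 fell, so rises were 38.7% of calls, where they had been as many as falls. The correlation of fold change with transcript length was 0.19 and with the number of fingers 0.14.

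**Figure D5:**
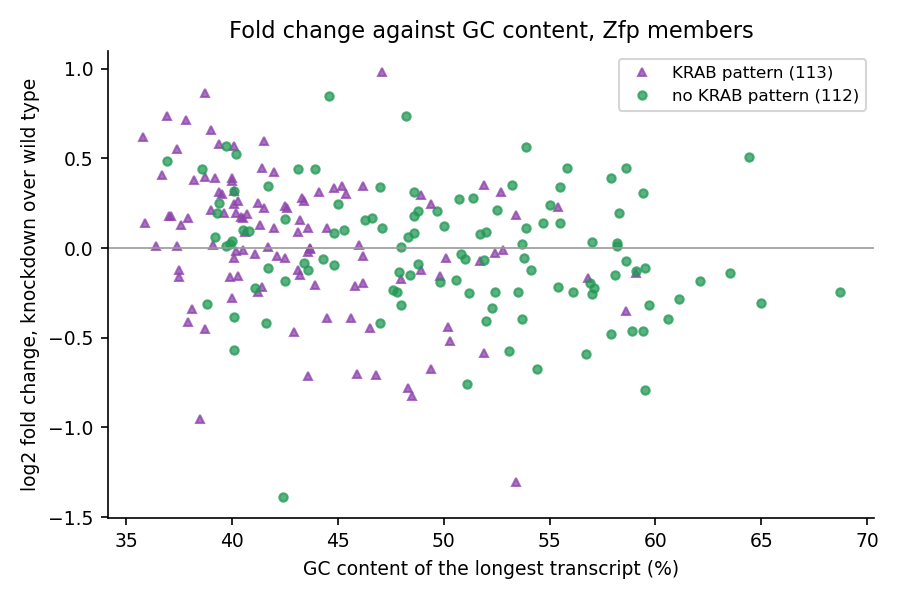
Log2 fold change, knockdown over wild type (y axis), against the GC content of the longest transcript (x axis, %) for the 113 members with a KRAB pattern (purple triangles) and the 112 without (green circles). The cloud leans downward to the right (Spearman -0.31, n = 225), and KRAB members sit mainly at low GC content.

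With starts within 250 kb, 94 members fell into 18 clusters of 3 or more, and 101 members lay on chromosomes 7, 17 and 8. On chromosome 7, 2 of 56 members rose and 7 fell (16.1% called, against 29.4% of all tested genes), with a median of -0.08. On chromosome 17, 4 of 27 rose and 2 fell (22.2%), with a median of 0.13. On chromosome 8, 0 of 18 rose and 2 fell (11.1%), with a median of -0.05. A chromosome 13 cluster of 9 KRAB members, chr13:67312998-67792512, had 0 calls, yet 8 of 9 estimates were above 0, with a median of 0.33. Zfp953 (0.74, adjusted p = 0.249) and Zfp595 (0.71, adjusted p = 0.124) had the highest estimates there. On chromosome 17, the cluster at chr17:21450374-22071168 held 9 KRAB members with Zfp51 the only call, and 7 of 9 estimates above 0. The cluster at chr17:32765496-33394641 held 8 KRAB members, of which Zfp871 and Zfp101 rose.

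Similar sequence could blur a few members. Counting 50-base words of the transcripts, 160 members shared under 1% of theirs with any other gene and 15 shared over 20%, none of them called. Of the 34 called members, 3 shared over 5%: Zfp944, Zfp566 and Zfp330. Another gene on the opposite strand overlapped 11 of the 34, and 1 on the same strand 8. The strand setting of the counting is not given, so reads of such pairs cannot be told apart.

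The co-repressor machinery of KRAB proteins was described from a list of 35 tested genes, of which 6 rose and 2 fell (22.9%, against 29.4% of all tested genes). The median count of the list was 1330, and at a mean of 1000 counts or more 50.1% of genes past the count rule passed. Hells, a remodeller needed for DNA methylation, rose by 0.67 (SE 0.064, adjusted p = 6.1e-10) and Cbx5, which encodes HP1 alpha, by 0.55 (SE 0.057, adjusted p = 3.37e-09). Dnmt1, the maintenance DNA methyltransferase, rose by 0.37, its partner Uhrf1 by 0.37, Atrx by 0.34 and Cbx1 by 0.24. Gatad2b, a NuRD subunit, fell by 0.44 and Trim24 fell by 0.30 (adjusted p = 0.0489). Trim28 was at 288, 293, 307 and 307 CPM in wild type and 340, 313 and 339 CPM in knockdown. Its ranges did not overlap, but it missed the threshold (0.15, SE 0.063, adjusted p = 0.0761), which it passed with DESeq2 (adjusted p = 0.0447) and with GC content and length corrected for (0.24, adjusted p = 0.00118). Setdb1, the histone methyltransferase of the complex, did not pass (0.25, adjusted p = 0.257).

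Zinc finger genes with other names gave these counts. Of 22 tested Zfp genes with a letter after the number, 2 rose and 2 fell (18.2%), with Zfp280b at 0.84 (adjusted p = 0.00524) and Zfp955b at 0.37 (adjusted p = 0.008), both lost without knockdown 1 (0.0672 and 0.0538). Of 35 Zbtb genes, which pair fingers with a BTB domain, 8 rose and 2 fell (28.6%, about the 29.4% of all tested genes). Zbtb41 rose by 0.91 (SE 0.14, adjusted p = 4.1e-06). Zbtb14 rose by 1.11 (adjusted p = 0.0188) through knockdown 1, at 22.4 CPM against 5.64 and 9.30 CPM in the others, and without it the log2 fold change was 0.37 (adjusted p = 0.444). It was lost as well without wild type 1, 2 or 4 (0.0811, 0.0963 and 0.0817). Of 15 Zscan and Zkscan genes, 0 rose and only Zkscan17 fell (-0.42, adjusted p = 0.00685).

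Of the 34 called members, 13 passed under each of 17 alternative settings and 21 missed the threshold under at least 1, of which 20 did so when a single library was left out. The 13 were Zfp207, Zfp326, Zfp367, Zfp407, Zfp568 and Zfp871, which rose, and Zfp277, Zfp420, Zfp51, Zfp598, Zfp689, Zfp703 and Zfp775, which fell. Zfp420 and Zfp689 met the count rule through wild type only, and none of these 17 settings changed the choice of members. Direction was kept by all 34 in these settings. Without knockdown 1, 11 members rose, without knockdown 2, 10 rose and 11 fell, and without knockdown 3, 10 fell.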

How the data were processed

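The authors deposited raw read counts per gene symbol in one table, used as deposited. Trimmomatic, STAR, HTSeq and the build mm10 are listed, without roles or versions, per the submitters' processing notes. The sources used here do not give the annotation, the strand setting or how reads with several matches were treated. The single-cell samples of the series were not analysed here.

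Counts were tested with edgeR 4.0.16 in R 4.3.3 (filterByExpr on the group, TMM factors, robust quasi-likelihood test, no covariate, Benjamini-Hochberg over 11594 genes), on all 7 libraries, which held 14987324 to 18673395 counts. The script was tested on simulated data. Alternatives were RLE and upper-quartile factors, other filters, DESeq2 1.42.0, limma-voom (limma 3.58.1), a replicate block, thinning, removal of Rn45s, a GC and length correction (loess span 0.5), other count rules for membership and each library left out. Members and lists were chosen with earlier results of these data known, so they are no independent support.

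Positions, lengths, GC content, fingers (pattern C, 2 to 4 residues, C, 12, H, 3 to 5, H) and KRAB patterns came from GENCODE M21 (GRCm38/mm10), to which all 225 members matched, 224 by symbol and 1 by synonym. Translated transcripts replaced a protein table, and this source, the ZNF143 letters and the promoters shown were chosen after values were seen. The ZNF143 letters were also chosen after the promoters were seen. Promoters are RefSeq, 250 bases before to 50 after a start, for 183 members. Named members are the 10 largest rises and falls among calls with ranges apart, the 5 highest per kb, and the role lists. The other called members and cluster neighbours were named after their values were seen. No test over sets of genes was run.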

Additional observations from a re-analysis of the deposited data

Results flagged for a closer look

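Zfp277 was at 57.5 CPM in wild type 3, well below the 68.1 to 69.9 CPM of the other wild-type libraries, a gap of 0.854 of the group's range which is past the limit of Dixon's test for 4 values. Of 77 quantities searched this was the only one past the limit, while chance alone gives about 1 in 20, or 3.9. Zfp277 fell in knockdown with or without that library.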

How the results depend on the processing

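No named gene that passed in the main test changed direction, while the median of members without a KRAB pattern changed sign under some settings. Direction was not checked for genes that did not pass. Leaving out each library in turn gave 10 to 18 members higher and 10 to 16 lower, a median log2 fold change of 0.012 to 0.051, 2 to 6 KRAB members higher and 2 to 6 lower, 6 to 12 other members higher and 7 to 12 lower (median -0.048 to 0.007), and 1 to 2 genes of the silencing machinery lower. With the replicate number as a block, 16 members rose and 12 fell, the members' median was 0.055, 7 other members fell and 1 silencing gene fell. Same-numbered libraries did not deviate together (correlations -0.0344, -0.0275 and -0.00627). The labels do not say whether equal numbers pair the samples, and these correlations cannot decide it. After correction for GC content and length the medians were 0.018 for KRAB and -0.038 for other members. With membership at 100 counts they were 0.011 and 0.023, with 20 counts that of the other members was -0.036, and without members that passed through 1 group only, an alternative added after seeing the data, 0.008. Silencing genes lower numbered 1 with no low-count filter and 1 after thinning. Precision varied with count: the median standard error was 0.206 for members and 0.149 for all tested genes, and it was lower for abundant members.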
